A study of Homo sapiens with 6 samples.

Results

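The transcripts described here were the human protein-coding transcripts with a spliced length of 5000 bases or more. They were found by matching the transcript identifiers of 5 single-cell count matrices, with the version number removed, to GENCODE release 44, and keeping those of biotype protein_coding at or above that length. This gave 4924 transcripts of 3076 genes, out of 26341 human coding transcripts, 42740 matched human transcripts and 46484 human transcripts in all, and out of 81209 human and mouse transcripts. The rule used length and biotype only and no measured value. For comparison, 7020 coding transcripts under 1500 bases were present in the same matrices.

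The libraries held a mixture of human cells labelled JJN3, a myeloma line, and mouse cells labelled 5TGMG1 (5TGM1 in the paper), also a myeloma line, and no drug treatment was labelled. Cells were captured either on 10X Chromium or by Drop-seq, the cDNA was amplified by PCR for the number of cycles given in the labels, and full cDNA molecules were read on nanopore instruments. The libraries were 10X at 30 and at 35 cycles (2000 cells each in the labels), Drop-seq at 25 cycles (1000 cells), and Drop-seq at 30 and at 35 cycles (500 cells each), with 1 library per group. Differences between them therefore have no replicate check, no p-value is given, and every interval below is a 95% interval for counting error alone.

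A messenger RNA of this length usually owes it either to a very large open reading frame, as in motors, scaffolds and chromatin regulators, or to a long 3′ untranslated region (3′ UTR). Long 3′ UTRs carry binding sites for microRNAs and RNA-binding proteins, and many genes choose between a short and a long 3′ end by alternative polyadenylation. Both capture methods prime reverse transcription with oligo(dT) on the poly(A) tail, and a run of A inside a transcript can pair with the same primer.

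The median member was mostly untranslated sequence. Length had a median of 6712 bases and reached 109224, while the coding part had a median of 2559 bases and the 3′ UTR of 3671.5. The coding part filled a median of 37.4% of a long transcript and 60.2% of a short one, and GC content was 43.6% against 50.4%. A run of 15 or more A, ending 50 bases or more before the 3′ end, was present in 1017 members (20.7%), in 995 of them in the 3′ UTR. The same run was present in 0.584% of the short transcripts of these matrices, in 3.33% of all coding transcripts of GENCODE and in 14.7% of its long ones.

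The longest such runs of 6 long transcripts with lower levels at 35 than at 30 cycles in 10X are given here, since members with runs of 20 A or more had the largest difference of any sequence class described further on. The coordinates are those of hg38, sequences are written 5′ to 3′ on the transcript's strand from GENCODE, and capitals mark the run of A. All 6 lay in the 3′ UTR.
FAM241A ENST00000309733, chr4:112189369-112189398, plus strand: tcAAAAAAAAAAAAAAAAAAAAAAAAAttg
NOPCHAP1 ENST00000552951, chr12:105017496-105017525, plus strand: ctcAAAAAAAAAAAAAAAAAAAAAAAtgta
TIGD1 ENST00000408957, chr2:232546304-232546333, minus strand: aaactAAAAAAAAAAAAAAAAAAAAgagga
C15orf40 ENST00000304177, chr15:83003117-83003146, minus strand: tctcAAAAAAAAAAAAAAAAAAAAAggatc
MINDY2 ENST00000559228, chr15:58857530-58857559, plus strand: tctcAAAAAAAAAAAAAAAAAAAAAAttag
CSNK1A1 ENST00000261798, chr5:149493358-149493387, minus strand: atctAAAAAAAAAAAAAAAAAAAAAAgtgg

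For comparison, 3 long transcripts that were 2-fold higher at 35 cycles in 10X had only short runs of A, also in capitals, and in each of them the longest one lay in the coding sequence. These examples do not stand for all members, since a run of 15 A or more was present in 5 of the 13 members that were 2-fold higher and in 25 of the 62 that were 2-fold lower. These belonged to ZNF740, a zinc finger protein, EIF3A, the largest subunit of translation initiation factor 3, and NBPF14, of the neuroblastoma breakpoint family.
ZNF740 ENST00000416904, chr12:53185446-53185475, plus strand: ggcctctcattcAAAAAAgactgttaaaaa
EIF3A ENST00000369144, chr10:119073858-119073887, minus strand: gttatgaaaagtAAAAAAcatagaacatgg
NBPF14 ENST00000614999, chr1:148533928-148533957, minus strand: aggggaaggggAAAAAAAgaaggggaagaa

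The last 30 bases of 4 leading members, with the polyadenylation signal AATAAA or ATTAAA nearest the end in capitals, show the annotated ends at which poly(A) capture would take place. Within the last 40 bases 79.3% of the members carried one of these hexamers, against 44.7% of the short transcripts, 45.2% of all coding transcripts of GENCODE and 73.5% of its long ones. The NOPCHAP1 end also holds AATAAA, in lower case upstream of the marked ATTAAA.
NOPCHAP1 ENST00000552951, chr12:105017596-105017625, plus strand: ggaatatataataaatgttcATTAAActga
DDX6 ENST00000534980, chr11:118747763-118747792, minus strand: atctcAATAAAagcccactggaactccaaa
CCND2 ENST00000261254, chr12:4305324-4305353, plus strand: atttggacAATAAActcaccttgacctaaa
ZNF740 ENST00000416904, chr12:53195113-53195142, plus strand: tgaAATAAAagctcagtgattgaaactttc
The members without a signal held 21.4% and 21.8% of the long counts in 10X, and between 17.6% and 21.4% in the Drop-seq libraries.

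The files held between 494147 and 2311090 counts per library. Their smallest stored value differed, being 1 in Drop-seq at 25 cycles, 2 in 10X and 3 in the other Drop-seq libraries, so a transcript listed at 0 in a library may have been seen there at lower counts. Human cells, taken as those of the labelled number of top barcodes with 90% or more human counts, numbered 1006 and 911 in 10X at 30 and 35 cycles and 251, 166 and 165 in Drop-seq at 25, 30 and 35. Their median human count was 117 and 171 in 10X and 256, 237.5 and 344 in Drop-seq. The 10X libraries shared 722 human-cell barcodes and Drop-seq at 30 and 35 cycles shared 145. Drop-seq at 25 cycles shared 135 and 133 with these, so the libraries of one platform are in large part repeated readings of the same barcodes and not independent samples.

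The human cells of the platforms did not carry the same markers. Of 10 plasma cell genes all 10 were detected in either 10X library, at summed levels of 6761 and 4395 CPM, counts scaled to the same total of human counts in each library, whereas in Drop-seq MZB1 alone was detected, at 74.5 to 130 CPM. Of 15 T cell genes 3 and 2 were detected in 10X, at 49.4 and 20.1 CPM, and 11, 6 and 7 in Drop-seq, at 2473, 2517 and 2043 CPM. Thus the Drop-seq human cells went against their myeloma label by these genes, and in every comparison between platforms below the capture method, the cells and the smallest stored value cannot be told apart.

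Long coding transcripts held 18.9% (18.7 to 19.0) of the human counts in human cells of 10X at 30 cycles, 30532 of 161961, and 13.5% in 10X at 35 cycles, 26870 of 199308. In Drop-seq they held 6.45% at 25 cycles, 7.06% at 30 and 7.31% at 35. The short coding transcripts ran the other way, at 24.1% and 30.8% in 10X and between 36.4% and 37.9% in Drop-seq. Across all barcodes 3382 and 3385 long members were detected in 10X, 3133 in Drop-seq at 25 cycles, and 1322 and 1585 at 30 and 35 cycles. In human cells alone these numbers were 2704, 2614, 1256, 648 and 766. 283 members were found in human cells of all 5 libraries and 3849 in at least 1, the other members appearing only in other barcodes.

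**Figure D1:**
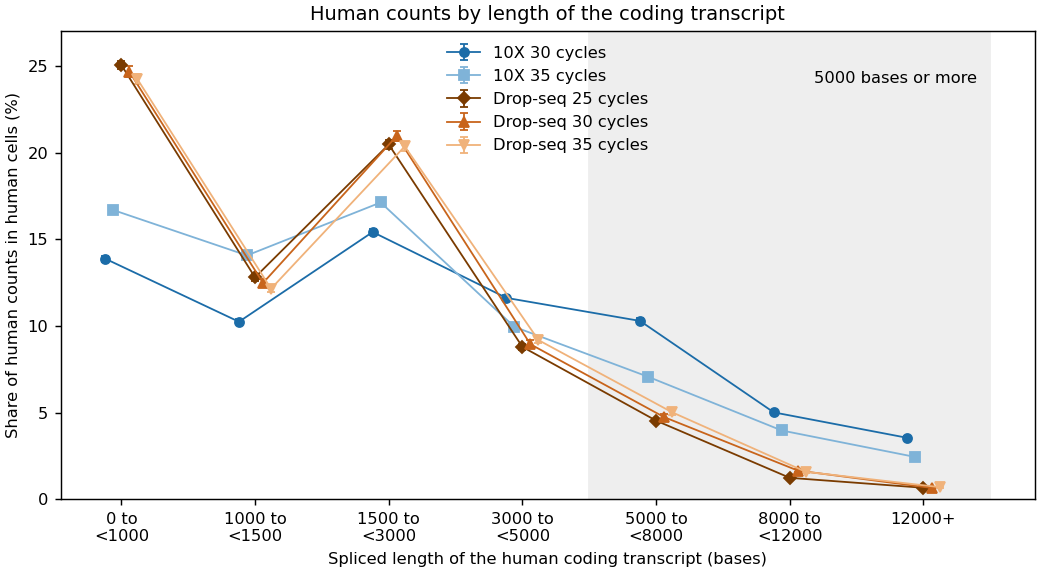
Share of human counts in human cells (percent, vertical axis) by spliced length of the coding transcript (bases, horizontal axis) in the 5 libraries, with 95% counting intervals mostly smaller than the symbols. In the shaded classes of 5000 bases or more 10X at 30 cycles lies highest, 10X at 35 cycles next and the 3 Drop-seq libraries lowest, and under 1000 bases this order is turned round.

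The 10X difference between cycle numbers depended on length class. From 30 to 35 cycles the log2 ratio of the share was 0.27 below 1000 bases, 0.46 from 1000 to 1500, 0.15 from 1500 to 3000, -0.22 from 3000 to 5000, and then -0.54, -0.34 and -0.54 in the classes from 5000, 8000 and 12000 bases. The change of sign lay below the limit of 5000 bases, and transcripts just inside it (5000 to 5200 bases) and just outside it (4800 to 5000) had ratios of -0.56 and -0.53. In Drop-seq the same ratios lay between -0.06 and 0.09 in all 7 classes.

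For the long class as a whole the log2 ratio of 35 over 30 cycles was -0.48 (-0.51 to -0.46) in 10X and 0.05 (-0.003 to 0.10) in Drop-seq. For the short class it was 0.35 and -0.03. The 10X ratio was -0.34 when mitochondrially encoded and immunoglobulin genes were taken out of the total, -0.43 in the barcodes common to both libraries, -0.54 after thinning the deeper library to the other's total, and -0.73 when stored values below 3 were left out. No test compares the platforms, since each ratio rests on a single pair of libraries.

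The same was seen cell by cell. In the median human cell long transcripts held 18.2% of the human counts in 10X at 30 cycles and 12.8% at 35, and 5.32%, 6.54% and 6.52% in Drop-seq. Of the 722 barcodes that were human cells in both 10X libraries 513 (71.1%) had a lower long share at 35 cycles, with a median difference of -4.05 percentage points, and 526 (72.9%) had a higher short share. Of the 145 shared Drop-seq barcodes 68 were lower, 74 higher and 3 equal. At least 1 count on a long transcript was present in 99.6% and 99.9% of the human cells in 10X and in 96.8%, 89.2% and 97.6% in Drop-seq. In mouse cells, at like median depths (117 to 417 counts against 118 to 352), that share was 6.70%, 3.97%, 46.9%, 4.81% and 6.47%, in the same order of libraries.

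**Figure D2:**
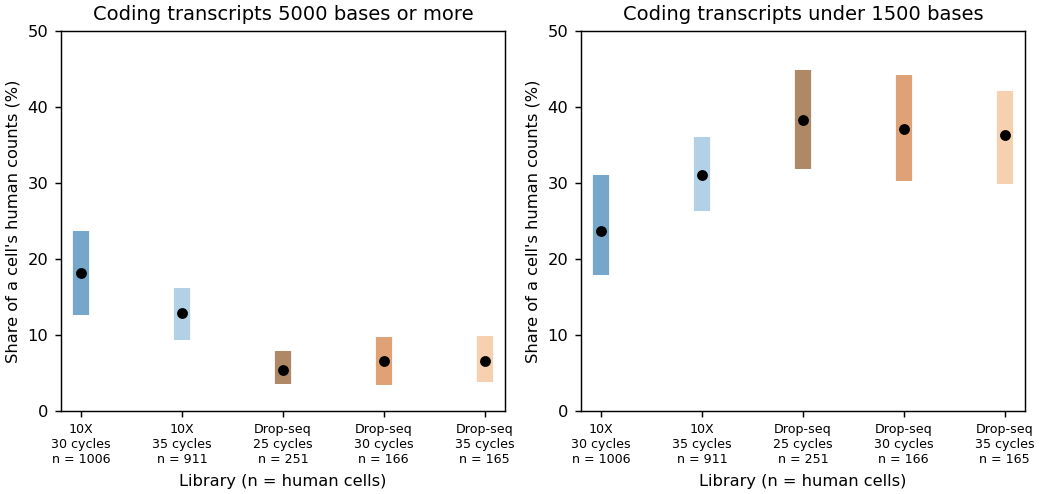
Share of a cell's human counts (percent, vertical axis) on long (left) and short (right) coding transcripts in the human cells of each library (horizontal axis), points being the median over cells and bars the range between the quartiles. The long medians are 18.2% and 12.8% in 10X and 5.32% to 6.54% in Drop-seq, and the short medians are lower in 10X than in Drop-seq.

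A few members held a large part of the long counts. The 10 leading transcripts held 17.8% and 18.9% of them in 10X and 9.61%, 7.70% and 7.46% in Drop-seq, and 124, 135, 148, 156 and 168 members were needed to reach 50%. Members with 50 counts or more in human cells numbered 101 and 70 in 10X and 13, 1 and 4 in Drop-seq. Counts are of molecular tags and were not divided by length, so they rank the members by tags assigned and not by coverage. The paper proposes that PCR errors in the tags inflate such counts at higher cycle numbers. How far this enters the differences between cycle numbers given here was not tested.

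The leading member in 10X at 30 cycles was NMNAT3, a mitochondrial enzyme of NAD synthesis, whose 6881-base transcript has a coding part of 474 bases. It had 903 counts in 10X at 30 cycles, 721 at 35, and 26, 23 and 30 in Drop-seq at 25, 30 and 35. NOPCHAP1, which helps to assemble small nucleolar ribonucleoproteins, came next in that library, with 829, 548, 73, 34 and 44 counts on a transcript of 23524 bases, of which 22929 are 3′ UTR. FAM241A, an uncharacterized membrane protein gene, had 586, 374, 21, 15 and 24. All 3 were highest in 10X at 30 cycles, and their CPM in each Drop-seq library was lower than in either 10X library.

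TIGD1, derived from a transposon of the pogo type, had 547 and 261 counts in 10X and 7, 15 and 20 in Drop-seq. DDX6, an RNA helicase of P-bodies that takes part in mRNA decay, had 477, 209, 19, 10 and 17 on one transcript, and a second DDX6 transcript of nearly the same sequence had 475 and 212 in 10X. SOD2, the manganese superoxide dismutase of mitochondria, had 460, 397, 14, 13 and 18 on a transcript of 14167 bases with a coding part of 669. Isoforms such as the DDX6 pair share almost all their sequence, and how the authors' counting divided molecules between them is uncertain. Among the 172 members compared between the 10X libraries, 59 shared their gene with another such member and 3 had the same counts in every cell as another transcript.

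ZNF740 and LRRK1 went the other way in 10X. ZNF740 had 462 counts at 30 and 1325 at 35 cycles, which made it the leading long transcript of that library, and was listed at 0 in all 3 Drop-seq libraries. LRRK1, a kinase of the ROCO family, had 340 and 650, with 23, 3 and 16 in Drop-seq. CCND2, the cyclin D2 of G1 progression, had 345 and 341 counts and was listed at 0 in Drop-seq. In all 3 genes the level in 10X was far above that in Drop-seq, while their direction from 30 to 35 cycles was not shared.

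Drop-seq had other leaders. HMGB1, an abundant chromatin protein, had 156, 77 and 100 counts in Drop-seq and 39 and 122 in 10X. RPL14, a large ribosomal subunit protein, had 66, 43 and 52 against 27 and 40, on a 7072-base transcript whose coding part is 648 bases. RTRAF, a subunit of the tRNA ligase complex, had 68, 38 and 39 in Drop-seq and was listed at 0 in both 10X libraries. NUCKS1, a chromatin-associated protein, had 57, 24 and 52 against 15 and 42, and PAK2, a kinase activated by small GTPases, 57, 17 and 33 against 27 and 13. None of these was among the 8 genes with the most counts in a 10X library, whereas NOPCHAP1 was among the 8 in all 5 libraries. MCPH1, a protein of chromosome condensation and the DNA damage response, had 6, 27 and 31 in Drop-seq against 2 and 0, and AGO2, the Argonaute protein that cleaves microRNA targets, 4, 26 and 20 against 10 and 8.

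**Figure D3:**
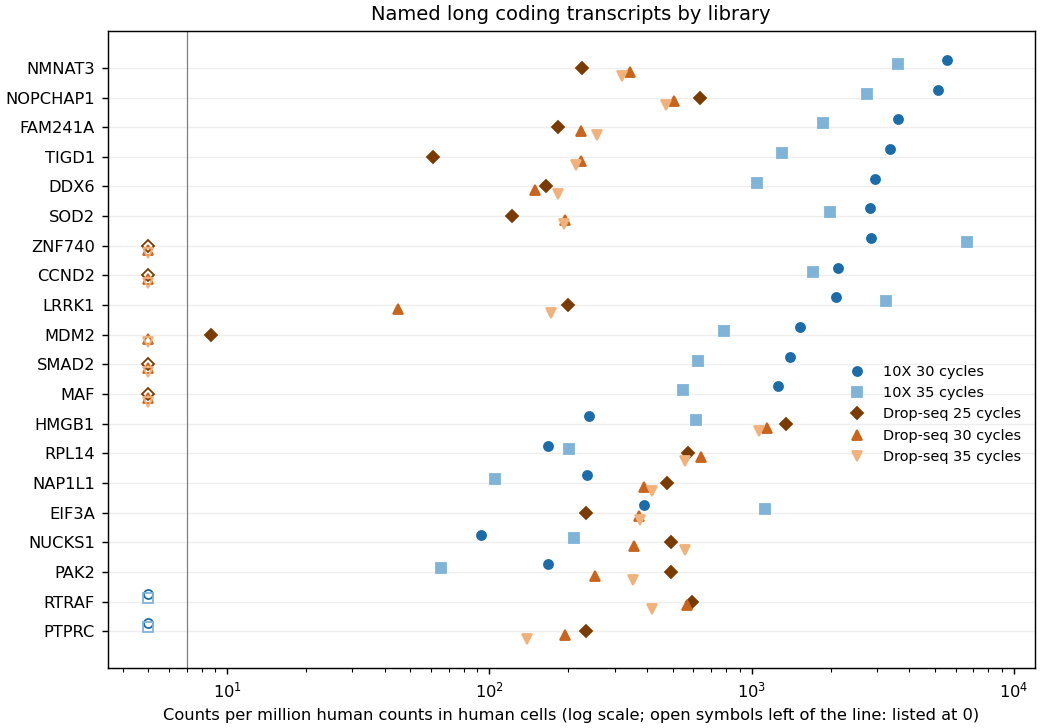
Level of 20 named long transcripts (CPM in human cells, horizontal log axis) in the 5 libraries, with open symbols at the left for those listed at 0. NMNAT3 to MAF lie further right in 10X, with ZNF740, CCND2, SMAD2 and MAF listed at 0 in all Drop-seq libraries, and RTRAF and PTPRC are listed at 0 in 10X.

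Between the 10X libraries 172 members of 140 genes had 50 counts or more over both. Of these 62 were 2-fold or more lower at 35 cycles and 13 were 2-fold or more higher, with a median log2 ratio of -0.75. Over all 746 human transcripts at this minimum 21.0% were lower by this rule and 9.52% higher, with a median of -0.13, and of 146 short ones 11 were lower and 12 higher, with a median of 0.27. The 62 lower members belonged to 54 genes and the 13 higher ones to 12. Both counts depend on the minimum set, and with stored values below 3 left out 36 members remained at the minimum, 21 of them lower and 10 higher. The share over all human transcripts was not worked out in that setting.

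With 1 transcript taken per gene, the most counted one, the 5 lowest ratios were those of EDEM1, C15orf40, MINDY2, CSNK1A1 and SENP5. EDEM1, which directs misfolded glycoproteins to degradation in the endoplasmic reticulum, had 52 counts at 30 and 14 at 35 cycles, a log2 ratio of -2.16 (-3.16 to -1.32). C15orf40, an uncharacterized open reading frame, went from 99 to 28, a ratio of -2.10 (-2.78 to -1.50). MINDY2, a deubiquitinase of K48-linked chains, had 45 and 13, a ratio of -2.05. CSNK1A1, casein kinase 1 alpha, had 47 and 14 on its 5444-base transcript, a ratio of -2.01, and SENP5, a SUMO protease, had 73 and 23, a ratio of -1.94. All 5 intervals lay below a ratio of -1, but these members were chosen for their low ratios, so the intervals are no check on them. All but SENP5 and EDEM1 carried a run of more than 20 A.

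Among the leading genes DDX6 and TIGD1 had 10X ratios of -1.49 (-1.73 to -1.25) and -1.37 (-1.59 to -1.15), and NOPCHAP1, FAM241A, NMNAT3 and SOD2 of -0.90, -0.95, -0.62 and -0.51, within 2-fold. In Drop-seq NOPCHAP1 and NMNAT3, the only ones of these 6 at the minimum there, had -0.11 (-0.78 to 0.58) and -0.10 (-0.93 to 0.76).

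By the same choice of 1 transcript per gene the 5 highest ratios were those of GMPS, RSL1D1, EIF3A, NBPF14 and HMGB1. GMPS, the GMP synthetase, had 12 and 55 counts and a ratio of 1.85 (0.98 to 2.93), and RSL1D1, a nucleolar protein of ribosome synthesis, 10 and 46, a ratio of 1.85 (0.90 to 3.05). EIF3A had 63 and 225, a ratio of 1.53 (1.13 to 1.96), and its counts of 25 and 35 in Drop-seq gave a ratio of -0.0004. HMGB1 had 39 and 122, a ratio of 1.33 (0.82 to 1.91), against -0.10 in Drop-seq. NBPF14 had 47 and 166, a ratio of 1.51. Its family consists of near-identical repeats, so its counts could be split or joined among paralogs, and a second NBPF14 transcript and one of NBPF10 had ratios of 1.56 each. Named after their values were seen, the other genes of the 13 were ZNF740 at 1.22, NUCKS1 at 1.16, ARID1A at 1.15, WAC at 1.13, STK4 at 1.11 and SEC62 at 1.03.

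**Figure D4:**
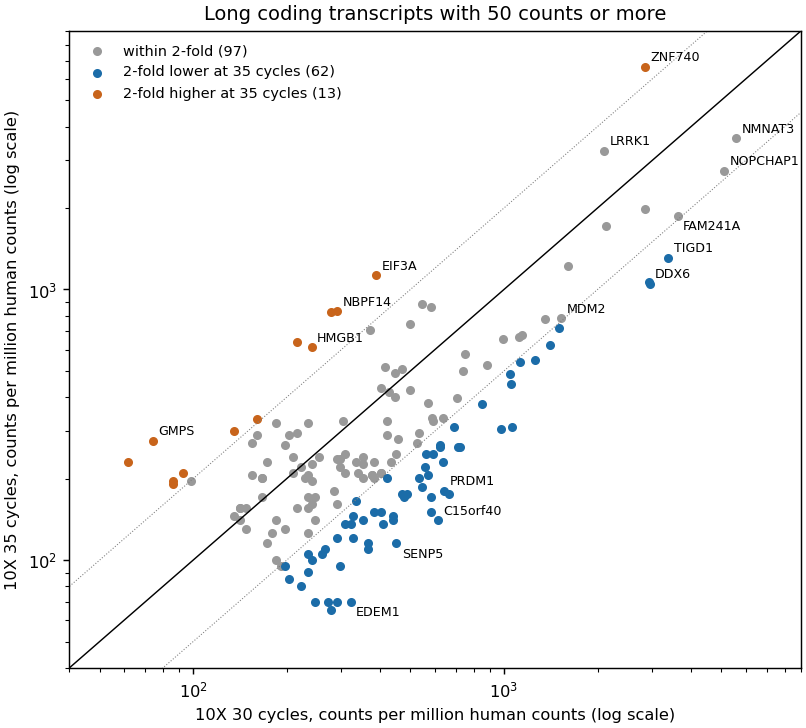
Level of the 172 long transcripts with 50 counts or more in 10X at 30 cycles (horizontal) and at 35 cycles (vertical), in CPM on log axes, with the diagonal and dotted lines at 2-fold. The 62 points at or below the lower line are the members that were 2-fold lower at 35 cycles and the 13 at or above the upper line those that were 2-fold higher, ZNF740 among them.

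A few genes had both a long and a short coding transcript with enough counts to be set side by side. With 50 counts or more in both classes there were 3 in 10X, and the long ratio was below the short one in all 3. MDM2, the ubiquitin ligase of p53, had 247 and 156 counts on long transcripts and 166 and 348 on short ones, log2 ratios of -0.96 and 0.77. HMGB1 had 39 and 122 on long and 13 and 82 on short ones, and SEC62, of the endoplasmic reticulum translocon, 26 and 66 against 14 and 37, so that its ratios of 1.03 and 1.07 nearly coincided. With 20 counts the number of genes was 7, of which 6 had the lower ratio on the long side. In Drop-seq the long ratio from 30 to 35 cycles was below the short one in 3 of 3 genes at 50 counts and in 6 of 9 at 20. The median of long minus short was -0.98 in 10X and -0.25 in Drop-seq at 50 counts, and -0.25 and -0.18 at 20. These differences rest on few genes, carry no interval and were not tested.

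Sequence features of the members separated the 10X difference further. By coding part, the share of human counts went from 4.46% to 3.13% for members that are under 10% coding, from 6.35% to 3.90% for 10 to 25%, and from 4.65% to 3.16% for 25 to 50%, with log2 ratios of -0.51, -0.70 and -0.56. For 50 to 75% coding the ratio was -0.23 (-0.31 to -0.16). For members at 75% or more it was 0.16 (0.09 to 0.24), with 1.53% at 30 cycles and 1.71% at 35. Of 15 such members at the minimum 3 were 2-fold higher and 0 lower, where of all long members 7.56% were higher and 36.0% lower. Only the members at 75% coding or more thus had no lower share at 35 cycles, while the other 4 classes had.

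By the longest run of A, members with 20 or more went from 4.08% to 2.23%, a log2 ratio of -0.87 (-0.93 to -0.82). Of 36 at the minimum 16 (44.4%) were 2-fold lower and 0 higher. The percentage lower was not far from the 40.4% of members with runs below 10 and the 36.0% of all long members. Members with 15 to 19 had -0.32, those with 10 to 14 had -0.47 and those below 10 had -0.38, so the ratio was not graded below 20. The features overlap. With a coding part under 25% the ratio was -0.70 with a run of 15 or more and -0.56 without, and with a larger coding part -0.43 and -0.28. By quartile of GC content, from lowest to highest, the ratios of the share were -0.63, -0.61, -0.40 and -0.17. Single members did not follow that order. Of 60, 49, 43 and 20 members at the minimum, 30.0%, 42.9%, 30.2% and 50.0% were 2-fold lower. Their median log2 ratios were -0.80, -0.87, -0.40 and -1.01. Which of these properties goes with the difference was not tested. In Drop-seq the intervals of all 5 coding classes and all 4 run classes included 0.

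**Figure D5:**
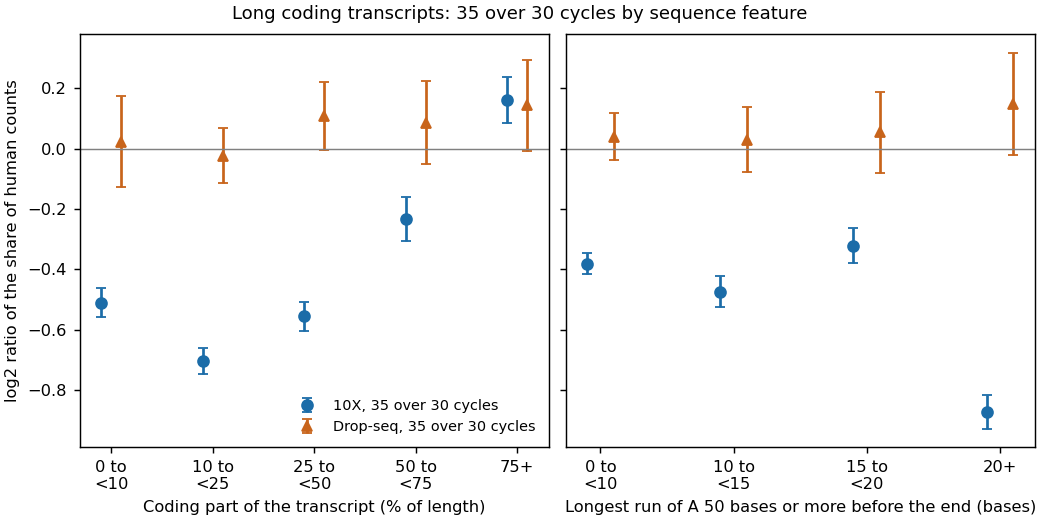
Log2 ratio of the share of human counts, 35 over 30 cycles (vertical axis), for long transcripts by coding part (percent of length, left) and by the longest run of A (bases, right), with 95% counting intervals, in 10X (circles) and Drop-seq (triangles). The 10X points lie below 0 in all classes but the one of 75% coding or more, and lowest at 20 A or more with -0.87, while all Drop-seq intervals cross 0.

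In Drop-seq 20 members of 17 genes reached 50 counts over the 30- and 35-cycle libraries. Here 2 were 2-fold higher and 0 lower, with a median log2 ratio of -0.09, and over all 556 human transcripts 1.62% were higher and 0.36% lower. Both higher members were transcripts of DNMT1, the maintenance DNA methyltransferase, named after their values were seen. One had 8 counts at 30 and 49 at 35 cycles, a ratio of 2.06 (1.05 to 3.43), and 21 at 25 cycles. The other had 6, 46 and 26. No member was 2-fold higher with 95% purity or with the number of cells halved. The remaining 18 lay within 2-fold, from RTRAF at -0.44 to NUCKS1 at 0.62.

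Between platforms at 30 cycles the log2 ratio of the long share, Drop-seq over 10X, was -1.42 (-1.46 to -1.37), and that of the short share 0.62. It was -1.12, -1.60 and -2.43 in the length classes from 5000, 8000 and 12000 bases, and -2.53 for members with 20 A or more. It was -0.75 when values below 3, which Drop-seq at 30 cycles does not hold, were left out of 10X as well. Cells, capture and smallest value differ together here, as described above.

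Of 113 members at the minimum 101 were 2-fold lower in Drop-seq and 3 higher, where over all 599 human transcripts 51.8% were lower and 34.4% higher. Of the 101, 51 were listed at 0 in Drop-seq, so no fold is given for them. Of the 62 members with counts in both libraries 50 (80.6%) were lower, with a median of -2.35. Over all 416 human transcripts with counts in both, 136 (32.7%) were lower and 197 higher, with a median of 0.53. With values below 3 left out 21 members were compared, of which 20 were lower, and the share over all transcripts was not worked out there. The members listed at 0 in Drop-seq with the most counts in 10X were ZNF740, CCND2, MDM2 with 247 counts, SMAD2, a transducer of TGF-beta signals, with 227, and MAF, a transcription factor expressed at high level in some myelomas, with 204. Of the higher members HMGB1 had a ratio of 2.24 (1.68 to 2.85), and 2 transcripts of RPL14 had 1.93 and 1.86. EIF3A and HNRNPU, an RNA-binding nuclear matrix protein, had ratios of -0.05 and -0.03.

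Detected members overlapped in part. In human cells the 10X libraries shared 1830, which is 67.7% of those found at 30 cycles and 70.0% at 35. Drop-seq at 30 and 35 cycles shared 560, or 86.4% and 73.1%. Between the platforms at 30 cycles 428 were shared, 15.8% of the 10X members and 66.0% of the Drop-seq members. For short transcripts the same percentages were 51.2% and 48.9% in 10X, 90.6% and 80.5% in Drop-seq, and 31.7% and 45.9% between platforms.

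The members were also grouped by function, in lists put together with earlier results of these data known. Of 16 plasma cell and lymphoid regulators 15 had a long transcript detected. Their counts were 929 and 647 in 10X and 43, 36 and 51 in Drop-seq, and the summed log2 ratio of 35 over 30 cycles in 10X was -0.82 (-0.97 to -0.67). Of 5 members at the minimum 4 were 2-fold lower, with a median of -1.75. The median was -0.75 over all long members, 36.0% of which were lower, and -0.13 over all human transcripts, 21.0% of which were lower. PRDM1, the repressor that drives plasma cell differentiation, had 104 and 36 counts in 10X on its 5148-base transcript, and MAF 204 and 109, and both were listed at 0 in Drop-seq. PTPRC, the CD45 phosphatase of leukocytes, was listed at 0 in 10X and had 27, 13 and 13 counts in Drop-seq. PRDM1 and MAF thus lay on the 10X side and PTPRC on the Drop-seq side. PRDM1 is itself among the 10 plasma cell genes given above, so it is no separate check on them. MAF and PTPRC are in neither marker list.

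Of 13 genes of the ubiquitin system all had a long transcript, with 448 and 359 counts in 10X and 48, 37 and 42 in Drop-seq. Their summed 10X ratio was -0.62 (-0.82 to -0.42), and of 2 members at the minimum 0 were 2-fold lower or higher. MDM2 alone held 247 and 156 of the 10X counts, and RNF213, a giant ligase with a 21079-base transcript, had 34 and 48 in 10X and 3, 4 and 10 in Drop-seq. Of 11 PI3K-like kinases and DNA repair genes 10 were detected, with 108 and 96 counts in 10X, a summed ratio of -0.47 (-0.88 to -0.06), and 11, 3 and 18 in Drop-seq. None of their members reached the minimum. PRKDC, the catalytic subunit of DNA-dependent protein kinase, had 24 and 15 counts in 10X, POLQ, the DNA polymerase theta, and RIF1, which limits resection at DNA breaks, 10 and 6 each, and ATR, the replication stress kinase, 3 and 10.

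RNA processing and translation genes, with 14 of 20 detected, had 473 and 704 counts in 10X and 107, 94 and 141 in Drop-seq. Their summed 10X ratio was 0.27 (0.10 to 0.45), with 1 of 4 members at the minimum 2-fold higher, EIF3A. HNRNPU had 67 and 103 counts in 10X, and SON, a splicing cofactor of nuclear speckles whose transcript is mostly coding, 27 and 34. Chromatin and transcription regulators, with 29 of 30 detected, had 298 and 448 counts in 10X and 149, 89 and 112 in Drop-seq, a summed 10X ratio of 0.29 (0.07 to 0.51). Of 2 members at the minimum 1 was 2-fold higher, both of them transcripts of ARID1A, a subunit of the BAF remodelling complex, and none was lower.

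Motors, cytoskeleton and scaffold genes, all 22 of them detected, had 214 and 266 counts in 10X and 133, 72 and 78 in Drop-seq. Their summed 10X ratio was 0.01 (-0.25 to 0.28). MYH9, the heavy chain of nonmuscle myosin IIA, was the single member at the minimum, with 46 and 36 counts in 10X and 5, 4 and 8 in Drop-seq, a 10X ratio of -0.65 (-1.32 to 0.01). Proliferation markers, with 11 of 12 detected, had 125 and 193 counts in 10X and 122, 90 and 109 in Drop-seq, a summed 10X ratio of 0.33 (-0.005 to 0.66). MKI67, the Ki-67 antigen, had 23 and 28 counts on its 12716-base transcript in 10X. In Drop-seq the 35 over 30 ratio of 6 of the 7 lists had an interval that included 0, the other being the kinase and repair list, which rests on 3 and 18 counts.

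Mouse cells held few human counts on long members. They carried 132 and 86 long counts in 10X and 1292, 71 and 106 in Drop-seq at 25, 30 and 35 cycles. Relative to all counts the level in human cells was 163 and 288 times that in mouse cells in 10X, and 17.8, 174 and 173 times in Drop-seq. For short transcripts it was 164 and 141 times in 10X, and 31.0, 137 and 88.1 times in Drop-seq. Of the human counts found in mouse cells long members held 6.12%, 2.67%, 8.39%, 3.14% and 2.44%, in the same order of libraries. The log2 ratio of this share to that in human cells was -1.62 and -2.34 in 10X and -1.17 and -1.58 in Drop-seq at 30 and 35 cycles, but 0.38 (0.29 to 0.47) at 25 cycles. That library alone holds values of 1, and with values below 3 left out its ratio was -0.42. The same ratio for the short class was -1.63 and -1.31 in 10X and -0.42, -0.83 and -0.61 in Drop-seq at 25, 30 and 35 cycles. A lower share in mouse cells was thus not particular to long transcripts. Identifiers with no match in GENCODE held 42.8% and 26.2% of the human counts in mouse cells of 10X, and 14.1%, 43.9% and 40.6% in Drop-seq. In human cells they held 6.73% and 6.48% in 10X and 7.56%, 7.52% and 7.91% in Drop-seq.

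The members with the most counts in mouse cells differed in whether human cells also held them. HOMER1, a scaffold of the postsynaptic density, had 24, 9 and 17 counts in Drop-seq mouse cells and was listed at 0 in human cells of all 5 libraries. PURA, a single-stranded nucleic acid binding protein, had 55 and 6 in mouse cells of the 25- and 30-cycle Drop-seq libraries, against 1 and 0 in their human cells, with 2 and 9 in human cells of 10X. SPPL2A, an intramembrane protease, had 8, 4 and 13 in mouse cells of Drop-seq and 0 in its human cells, but 29 and 25 in human cells of 10X. TF, the serum transferrin gene, had 12 counts in mouse cells of 10X at 30 cycles beside 53 in human cells. Of the 58 and 33 members detected in mouse cells of 10X, 18 and 21 had a higher level there than in human cells. In Drop-seq these were 411 of 832, 13 of 18 and 14 of 21. Listed at 0 in human cells were 9, 14, 405, 13 and 14 of them. For short transcripts the numbers were 10 of 36 and 13 of 43 in 10X. They were 367 of 1343, 11 of 84 and 11 of 144 in Drop-seq. The share over all human transcripts was not worked out.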

How the data were processed

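Single-cell RNA was measured in 6 samples. For 5 of them the authors deposited matrices of UMI counts per barcode and transcript, and the sixth, a Drop-seq library with only a file of reads, was not used. Per the paper's methods minimap2 aligned the reads to a joint reference of hg38 and mm10 transcripts, and molecules were counted with UMI-tools (10X) or with UMI-tools or a set cover script (Drop-seq). Which of them made a Drop-seq matrix, and the rule behind the smallest stored value, is not given in the sources used here. The paper names JJN3 as the human line and elsewhere Jurkat, and its main text gives lower cycle numbers than the labels, which were used.

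Of 46484 human identifiers 42740 matched GENCODE release 44. Cells were the labelled number of barcodes with the most counts, human at 90% or more human counts and mouse at 10% or less. Barcodes between, 26 to 208 per library, were set aside and no doublet caller was run. Shares have exact Clopper-Pearson intervals and ratios exact conditional binomial ones, which cover counting error only. A member's log2 ratio is of CPM (counts scaled to the human total of the cells) with 0.5 added to each count. It is called at 2-fold among transcripts with 50 counts or more over both libraries, which is a size limit without a test. The calculation was checked on simulated counts. The members, gene lists and named-gene rule (most counts per library, highest and lowest ratios, most counts in mouse cells, 4 leading genes of each list) were chosen with earlier results of these data known. The 3′ end sequence of 1 leading transcript is not reported here. Python 3.11.15, pandas 2.3.3 and scipy 1.17.1 were used. Alternatives changed purity, number of cells, smallest value, length limit, identifier version, isoform choice, total and call minimum.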

Additional observations from a re-analysis of the deposited data

Results flagged for a closer look

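Between 30 and 35 cycles the long share gave unlike ratios on the platforms. Its log2 ratio of 35 over 30 cycles was -0.48 in 10X and 0.050 in Drop-seq, and that of the short share was 0.35 and -0.030. Each ratio rests on 1 pair of libraries, so the difference between platforms was not tested, and the platforms' human cells also differed in their markers.

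The long share in mouse cells relative to human cells was lower in 4 libraries, with log2 ratios of -1.62 and -2.34 in 10X at 30 and 35 cycles and -1.17 and -1.58 in Drop-seq at 30 and 35, and higher in Drop-seq at 25 cycles, with 0.38. This difference between libraries was not tested either, and the last library alone stores values of 1. The short share was lower in mouse cells in every library, with ratios between -1.63 and -0.42.

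Barcodes outside the cells, which enter no comparison above, also carried long transcripts. They held 16.3% and 11.2% of the human counts there in 10X at 30 and 35 cycles, and 7.78%, 8.75% and 8.66% in Drop-seq at 25, 30 and 35 cycles.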

How the results depend on the processing

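Each group held 1 library, so no replicate could be left out. No paired analysis was possible because each group held 1 library, so no replicate numbers pair libraries, and the values over shared barcodes are a description. Depth limits single members, most of which had under 50 counts. The choices of leaving out the 10 leading members and asking for counts in both libraries were made after seeing the data.

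The long share, in the order 10X at 30 and 35 cycles and Drop-seq at 25, 30 and 35, was 24.6%, 17.0%, 10.9%, 12.0% and 12.4% with 1 transcript per gene. It was 16.2%, 11.8%, 5.32%, 5.75% and 5.96% with identical identifier versions, 23.7%, 17.4%, 9.99%, 10.5% and 10.8% from 4000 bases, and 15.5%, 11.0%, 4.24%, 4.82% and 4.92% from 6000 bases. With values below 3 left out it was 11.9%, 7.20% and 6.24% in the first 3 libraries, and with the number of cells halved 19.4% and 13.9% in 10X. Without mitochondrial and immunoglobulin genes it was 23.1%, 18.2%, 6.61% and 7.50% in 10X and the 25- and 35-cycle Drop-seq libraries, and at 95% purity 6.24% in Drop-seq at 25.

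The 10X log2 ratio of 35 over 30 cycles was -0.73 with values below 3 left out, -0.53 with 1 transcript per gene, -0.44 from 4000 bases, -0.34 without mitochondrial and immunoglobulin genes, -0.43 in shared barcodes, -0.51 without the 10 leading members and -0.54 after thinning. The platform ratio was -0.75, -1.04, -1.17 and -1.67 in the first 4 of these settings, -1.49 with identical versions and -1.68 from 6000 bases. All kept their direction.

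The mouse over human ratio of Drop-seq at 25 cycles changed sign, to -0.42, with values below 3 left out, and was 0.26 with 1 transcript per gene and 0.47 from 6000 bases. In 10X at 30 cycles it was -2.36 and -1.09 with values below 3 left out and 1 transcript per gene, in 10X at 35 cycles -1.94 and -2.00, and -1.82 from 4000 bases. With cells halved it was -1.68 and -1.91 in Drop-seq at 30 and 35 cycles.

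At a minimum of 20 and of 100 counts, the 10X members 2-fold higher numbered 51 and 6 and those lower 157 and 34. The Drop-seq members higher numbered 6 and 0, with 5 lower at 20, and between platforms 45 and 1 were higher and 221 and 40 lower. With cells halved 6 were higher in 10X and 0 in Drop-seq, where purity of 95% gave 0 and 1 transcript per gene 1. With values below 3 left out 21 were lower in 10X, and 1 higher and 20 lower between platforms. Median-of-ratios scaling left 8 higher between platforms, and requiring counts in both libraries left 50 lower. Members compared numbered at most 475 in 10X, 172 in Drop-seq and 313 between platforms in any setting. Except for the requirement of counts in both libraries, the share over all human transcripts was not worked out in these settings. These counts therefore cannot be set against it. Fewer counts or members enter under the stricter settings, and the cause of the other changes was not tested.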
